A study of Mus musculus with 24 samples.

Results

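The genes described here build and load the MHC class I molecule. They are the heavy chains H2-K1 and H2-D1, the light chain B2m, the peptide transporter subunits Tap1 and Tap2, the loading factor Tapbp, the immunoproteasome subunits Psmb8, Psmb9 and Psmb10, and the class I transactivator Nlrc5. A probe was assigned to them when its accession, without the version, matched the mouse RefSeq gene of that symbol. All 10 genes were found among the 22907 symbols matched on the array, with 15 probes, and the brightest probe stood for each gene. In every tissue these probes were well above background on all arrays, so no member was lost to the filter on dim probes.

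The study set mice of 90 weeks against mice of 10 weeks in the kidney, the liver, the lung and the white adipose tissue (WAT), to learn which genes change as tissues age. The labels give every sample as a C57BL/6J male with no treatment, and each of the 8 groups held 3 samples, the aged livers being numbered 1, 2 and 4. Total RNA of each homogenized tissue sample was labelled with Cy3 and hybridised to an Agilent array of its own, 24 arrays in all. The labels number the samples without stating that each number is a separate mouse, so the p-values measure the spread between these samples. The 6 arrays of a tissue shared a slide, so a difference in level between tissues and a difference between slides cannot be told apart, whereas young and aged samples of a tissue lay side by side.

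Class I molecules show peptides from inside the cell to cytotoxic T cells and are themselves read by receptors of natural killer cells. The proteasome cuts the peptides, TAP1 and TAP2 carry them into the endoplasmic reticulum, and tapasin, the product of Tapbp, holds the empty heavy chain and B2m beside the transporter until a peptide binds. Interferon-gamma raises this set together, in part through NLRC5, and replaces the constitutive catalytic subunits of the proteasome by the immunosubunits. Most nucleated cells carry class I, and leukocytes carry much of it.

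Promoter sequences are shown for 5 members to mark where known motifs lie before the start. Whether such motifs bear on the change with age was not tested. They are the 250 bases before the RefSeq start in GRCm38.p6, read 5′ to 3′ along the gene. Capitals mark matches on either strand to the X2 box core (TGACG), the Y box (ATTGG), the core of the interferon-stimulated response element (TTCNNTTTC), the gamma-activated site (TTCNNNGAA) and the NF-kappaB core (GGGNNTTCC). No matches of different motifs overlapped in the members. For H2-K1, RefSeq gives 2 starts and the window of the downstream start is shown.
H2-K1, chr17:34000334-34000583, minus strand: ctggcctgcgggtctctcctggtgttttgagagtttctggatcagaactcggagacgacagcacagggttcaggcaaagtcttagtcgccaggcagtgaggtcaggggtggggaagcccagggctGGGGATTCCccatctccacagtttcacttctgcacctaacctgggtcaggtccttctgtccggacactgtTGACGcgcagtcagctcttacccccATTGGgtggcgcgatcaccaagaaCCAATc
H2-D1, chr17:35262844-35263093, plus strand: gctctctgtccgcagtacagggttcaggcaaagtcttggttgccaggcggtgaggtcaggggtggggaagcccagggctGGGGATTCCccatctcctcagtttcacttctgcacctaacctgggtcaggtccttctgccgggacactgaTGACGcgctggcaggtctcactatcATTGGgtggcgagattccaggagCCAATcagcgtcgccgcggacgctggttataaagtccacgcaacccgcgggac
B2m, chr2:122147437-122147686, plus strand: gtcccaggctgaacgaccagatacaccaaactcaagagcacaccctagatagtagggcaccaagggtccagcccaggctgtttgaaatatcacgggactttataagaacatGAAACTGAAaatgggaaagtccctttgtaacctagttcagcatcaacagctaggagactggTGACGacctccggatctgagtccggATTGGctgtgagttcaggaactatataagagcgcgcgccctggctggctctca
Tap1, chr17:34187306-34187555, plus strand: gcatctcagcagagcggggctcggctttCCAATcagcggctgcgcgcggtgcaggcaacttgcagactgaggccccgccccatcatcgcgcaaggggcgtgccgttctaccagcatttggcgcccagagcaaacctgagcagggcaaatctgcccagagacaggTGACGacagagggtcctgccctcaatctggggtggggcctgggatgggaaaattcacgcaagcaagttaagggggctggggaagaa
Psmb8, chr17:34197945-34198194, plus strand: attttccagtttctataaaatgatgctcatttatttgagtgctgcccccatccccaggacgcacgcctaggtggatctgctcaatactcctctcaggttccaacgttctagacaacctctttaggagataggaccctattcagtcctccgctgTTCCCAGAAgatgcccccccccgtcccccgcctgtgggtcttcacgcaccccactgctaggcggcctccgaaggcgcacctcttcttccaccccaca

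In H2-K1, H2-D1 and B2m, the X2 core and the Y box lay on the strand of the gene with 25 bases from the first base of one to the first base of the other. RefSeq windows were found for 8 members, 6 of them on chromosome 17. The X2 core occurred in 5 of these 8 (H2-K1, H2-D1, B2m, Tap1 and Psmb9), against 17.75% of the 32817 promoter windows of the same length. The Y box occurred in 6 of 8, the former genes and Tapbp, against 33.8% of all windows. Tap1 and Psmb9 stand head to head with 225 bases between their starts, so their windows share those bases and the same matches are counted for both. Of the 8, the interferon-stimulated response element core was found in B2m alone (7.12% of all windows), the gamma-activated site in Psmb8 alone (7.015%) and the NF-kappaB core in both heavy chains (4.97%). These are matches of letters and not measured binding sites. Only the exact strings were searched, so a window without a match may still hold a variant of the element. Psmb10 had a window but no match to any of the motifs, and Psmb8 had neither the X2 core nor the Y box. Tap2 and Nlrc5 are named only.

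Class I genes were higher in the aged kidney, with fewer or no members rising in the other tissues. All 10 genes rose in the aged kidney, between 1.98-fold (Tapbp) and 5.81-fold (Nlrc5), by limma with Benjamini-Hochberg adjustment over all genes of the tissue. In the liver 6 of 10 rose, namely H2-D1, Tap1, Tap2, Tapbp, Psmb8 and Nlrc5. In the lung only H2-D1 rose, and in WAT none did. No member fell in any tissue, at an adjusted or an unadjusted p under 0.05.

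These counts stand beside those of all genes tested. Here a gene is a RefSeq symbol or, for probes without a matched symbol, the array's own name for the target. In the kidney 20.6% of 31505 genes rose and 42.6% fell. In the liver 10.5% of 27907 genes rose and 17.0% fell. In the lung the shares were 2.72% and 2.89% of 30327 genes, and in WAT 2.01% and 0.579% of 30063 genes. With an unadjusted p under 0.05, 9 members were higher in the lung and 2 in WAT. The methods' t-test called no member in either of these tissues after adjustment, while a fit of all 24 arrays called 4 in WAT (H2-D1, Psmb8, Psmb9 and Psmb10) and B2m in place of H2-D1 in the lung (adjusted p of B2m = 0.0394).

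The kidney calls were made under every alternative tried, but those of liver and lung were not. Leaving out any 1 of the 6 liver samples left 1 to 3 liver members called, the fewest without young sample 1. The lung call was lost on leaving out any of the 3 young samples or aged sample 2 or 3. The median change of the members, as a log2 difference of 90 minus 10 weeks, was 1.60 in the kidney, 0.57 in the liver, 0.56 in the lung and 0.71 in WAT, against −0.23, −0.20, −0.08 and −0.05 for all genes tested.

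Over the 4 tissues, 38 of 40 differences lay above 0, the exceptions being B2m in the liver and Tapbp in WAT. Every aged sample lay above every young sample for 10 members in the kidney, 8 in the lung, 6 in the liver and 4 in WAT. Among all genes the groups were apart in this direction for 23.1%, 11.6%, 16.8% and 13.7% in the same order. The plot of levels by sample shows these groups.

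**Figure D1:**
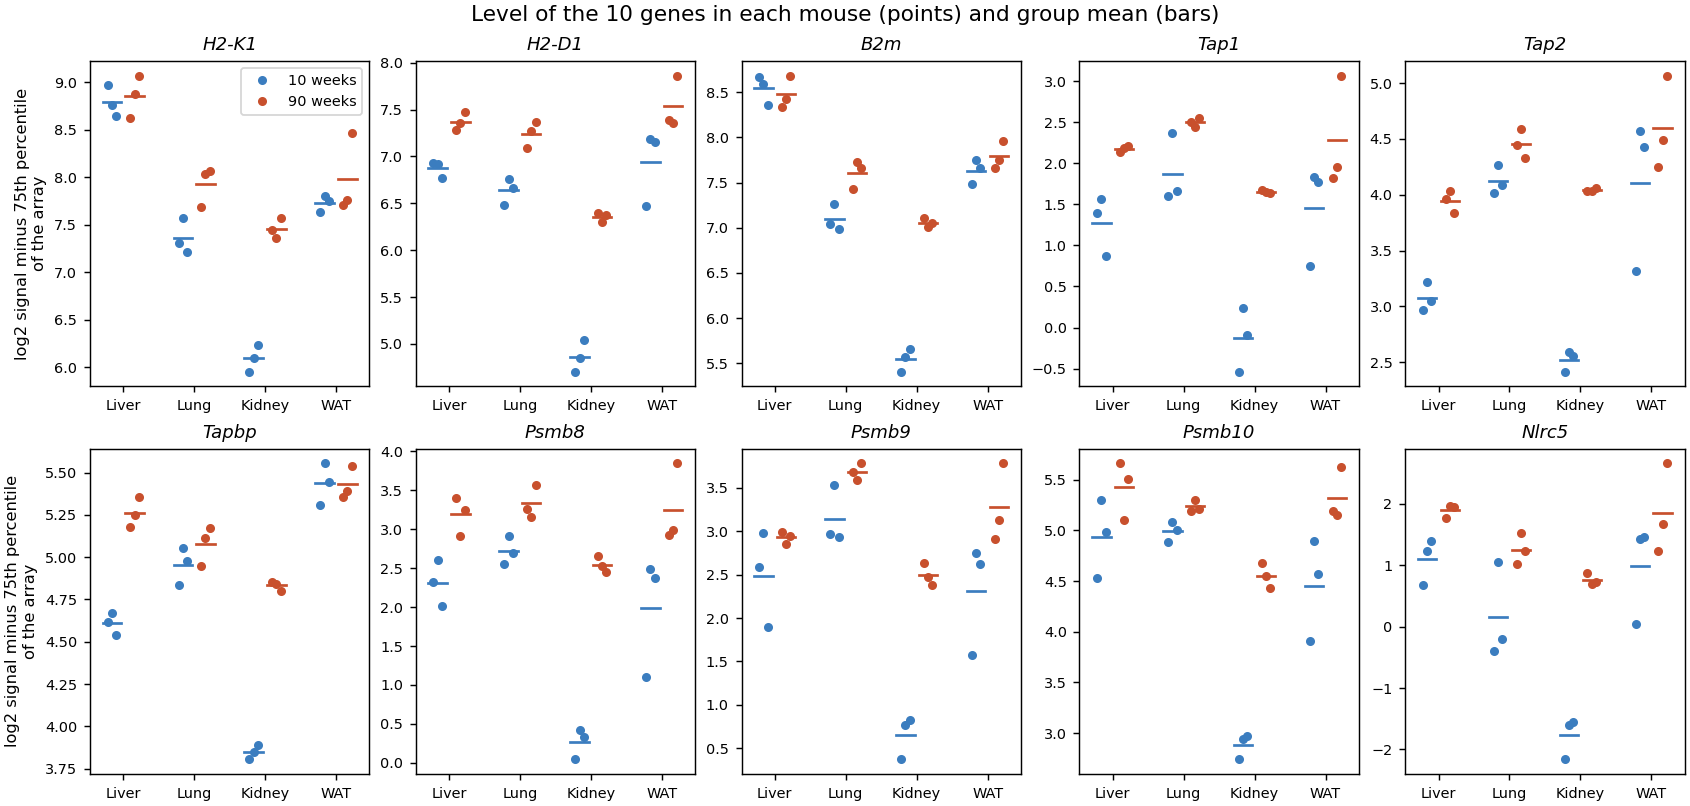
Level of each of the 10 genes in every sample (points) with the group mean (bar), as log2 signal minus the 75th percentile of the array, at 10 and 90 weeks in 4 tissues. In the kidney the aged points lie above the young points for all 10 genes, and the young WAT points spread by over 1 log2 unit for 5 genes.

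**Figure D2:**
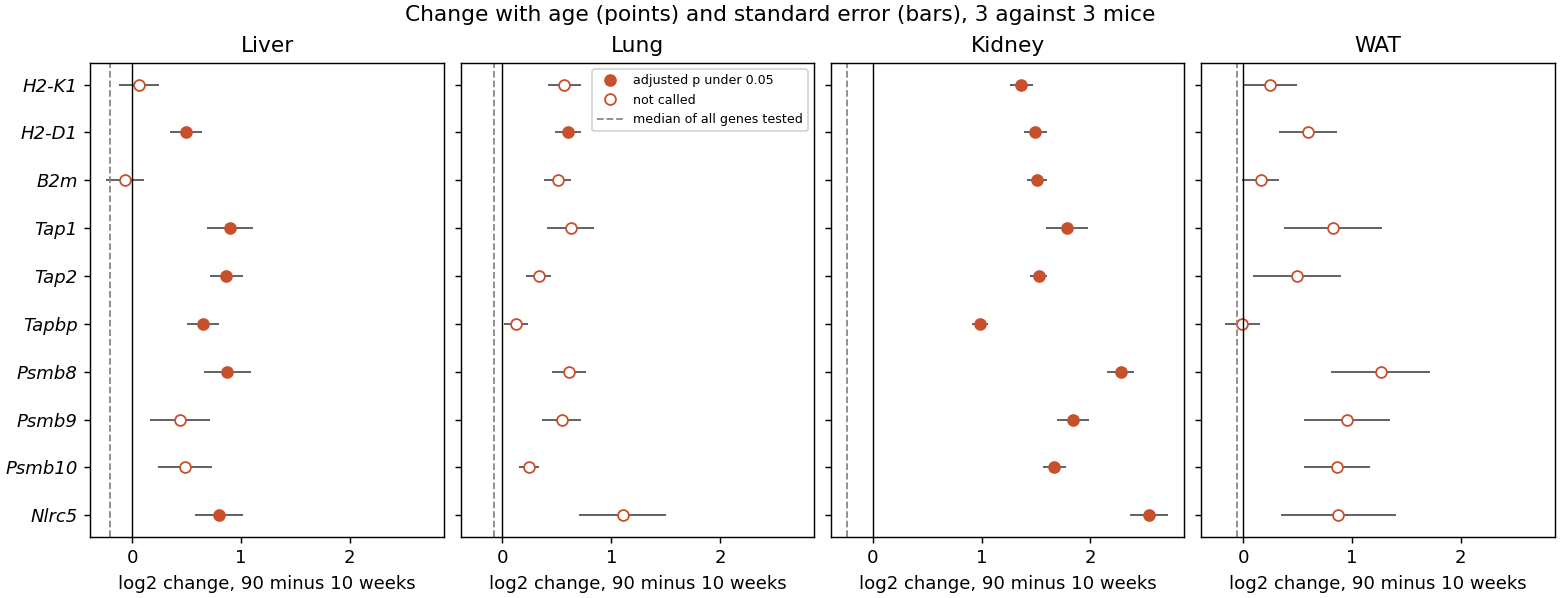
Log2 change from 10 to 90 weeks (point) with its standard error (bar) for each gene and tissue, 3 against 3 samples. Filled points have a limma adjusted p under 0.05, and the dashed line is the median change of all genes tested, which lies below 0 in every tissue. The kidney panel holds 10 filled points, the liver panel 6, the lung panel 1 and the WAT panel none.

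The scale of the arrays moved with age in some tissues. The 75th percentile of the signal was a median of 583 units in young and 844 in aged kidneys, and 289 in young and 436 in aged livers, but the lung had 863 and 862, and WAT 763 and 704. When arrays were scaled to 7 spike-in transcripts instead, the median change of all genes in the kidney moved from −0.23 to 0.16, in the liver from −0.20 to −0.09 and in the lung from −0.08 to −0.18. The share of called genes that were higher moved from 32.6% to 67.9% in the kidney and from 38.1% to 72.1% in the liver. This scaling moves all genes of an array alike, so the distance of the members from the median of all genes is unchanged by construction. The member median was then 1.99 in the kidney and 0.69 in the liver, and no liver member was called.

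The heavy chains and B2m form the molecule at the cell surface. H2-K1, the K heavy chain, had log2 levels of 5.95, 6.10 and 6.23 in young kidneys and 7.45, 7.36 and 7.57 in aged kidneys. The groups were over 1 log2 unit apart, and the rise was 1.36 ± 0.11 (SE, n = 3 and 3), or 2.57-fold, with a limma adjusted p of 0.000221. In the liver H2-K1 read 8.97, 8.76 and 8.64 in young and 8.63, 8.88 and 9.07 in aged samples. Those groups overlapped, and the difference was 0.07 ± 0.18 (adjusted p = 0.803). On the liver arrays 0.143% to 0.346% of probes were brighter than this one. In the lung the difference was 0.57 ± 0.15 (adjusted p = 0.0863) with no overlap, and in WAT it was 0.25 ± 0.25 (adjusted p = 0.618).

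H2-D1, the D heavy chain, was called in 3 tissues, more than any other member, and was the only member called in the lung. Its levels were 4.70, 4.85 and 5.04 in young and 6.40, 6.30 and 6.38 in aged kidneys, a rise of 1.49 ± 0.11 (adjusted p = 0.000175). In the liver they were 6.93, 6.92 and 6.77 against 7.28, 7.36 and 7.48, a rise of 0.50 ± 0.15 (adjusted p = 0.0470). In the lung they were 6.48, 6.76 and 6.67 against 7.09, 7.27 and 7.37, a rise of 0.60 ± 0.12 (adjusted p = 0.0484). Both of these calls lay close to the threshold, and H2-D1 was called under 7 of 15 alternatives in the liver and 3 of 15 in the lung. In WAT the aged samples (7.39, 7.36 and 7.86) lay above the young (6.48, 7.18 and 7.16), but the difference of 0.60 ± 0.27 was not called (adjusted p = 0.293). H2-D1 thus differed by a similar log2 amount in liver, lung and WAT, with the standard error largest in WAT.

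B2m, the light chain that every class I heavy chain needs, read 5.41, 5.57 and 5.66 in young and 7.11, 7.01 and 7.05 in aged kidneys. The groups stood apart, and the rise was 1.51 ± 0.09, or 2.84-fold (adjusted p = 0.00011). In the liver B2m read 8.67, 8.59 and 8.36 in young and 8.33, 8.43 and 8.68 in aged samples, a difference of −0.06 ± 0.17 (adjusted p = 0.808). The difference was 0.51 ± 0.13 in the lung (adjusted p = 0.0765) and 0.16 ± 0.17 in WAT (adjusted p = 0.643). In the liver neither B2m nor H2-K1 was called while H2-D1 was, but H2-K1 depended on the scaling. With quantile scaling H2-K1 in the liver was 0.51 and was called (adjusted p = 0.0455), the only 1 of 15 alternatives that called it.

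The second group carries and loads the peptide. Tap1, a subunit of the transporter, read −0.54, 0.24 and −0.09 in young and 1.68, 1.65 and 1.63 in aged kidneys, where the aged samples were nearly alike. The rise was 1.78 ± 0.19, or 3.44-fold (adjusted p = 0.000608). In the liver Tap1 read 1.39, 1.57 and 0.87 against 2.13, 2.18 and 2.21, a rise of 0.90 ± 0.21 (adjusted p = 0.0240). The difference was 0.63 ± 0.22 in the lung (adjusted p = 0.139) and 0.83 ± 0.45 in WAT (adjusted p = 0.371).

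Tap2, the partner subunit, rose by 1.52 ± 0.08 in the kidney (adjusted p = 6.69e-05), from 2.42, 2.59 and 2.56 to 4.04, 4.04 and 4.06. In the liver it rose by 0.87 ± 0.15 (adjusted p = 0.0114), from 2.96, 3.22 and 3.05 to 3.96, 4.03 and 3.84. This had the lowest adjusted p of the members in the liver and was called there under 13 of 15 alternatives. The lung difference of Tap2 was 0.33 ± 0.11 (adjusted p = 0.137), and the WAT difference 0.50 ± 0.40 (adjusted p = 0.539).

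Tapbp, tapasin, had the smallest rise in the kidney, 0.99 ± 0.07 (adjusted p = 0.000182), from 3.81, 3.85 and 3.89 to 4.85, 4.84 and 4.80. In the liver it rose by 0.65 ± 0.15 (adjusted p = 0.0213), from 4.62, 4.67 and 4.54 to 5.18, 5.25 and 5.36. Its differences were 0.12 ± 0.11 in the lung (adjusted p = 0.490) and −0.01 ± 0.16 in WAT (adjusted p = 0.990), where young and aged samples overlapped.

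The immunosubunits replace catalytic subunits of the constitutive proteasome. Psmb8 (also called LMP7) read 0.05, 0.42 and 0.33 in young and 2.65, 2.52 and 2.45 in aged kidneys, a gap of over 2 log2 units between the groups. The rise was 2.28 ± 0.12, or 4.84-fold (adjusted p = 7.01e-05). In the liver Psmb8 read 2.32, 2.60 and 2.01 against 3.40, 2.91 and 3.25, a rise of 0.88 ± 0.22 (adjusted p = 0.0283). In WAT it read 1.10, 2.48 and 2.37 in young and 2.92, 2.98 and 3.84 in aged samples. The WAT groups did not overlap, but young sample 1 lay far below the other 2 young samples, and the difference of 1.27 ± 0.45 was not called (adjusted p = 0.212). The lung difference was 0.61 ± 0.15 (adjusted p = 0.0764).

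Psmb9 (LMP2) rose by 1.84 ± 0.14, or 3.58-fold, in the kidney (adjusted p = 0.000236), from 0.37, 0.77 and 0.82 to 2.64, 2.47 and 2.38. In the liver young sample 3 lay low (2.59, 2.98 and 1.89 against 2.99, 2.86 and 2.95), the groups overlapped, and the difference of 0.44 ± 0.28 was not called (adjusted p = 0.259). The lung difference was 0.54 ± 0.18 (adjusted p = 0.128), and the WAT difference 0.96 ± 0.39 (adjusted p = 0.260). Psmb10 (MECL-1) rose by 1.67 ± 0.11, or 3.18-fold, in the kidney (adjusted p = 0.000121), from 2.74, 2.94 and 2.97 to 4.68, 4.55 and 4.43. Its differences elsewhere were 0.49 ± 0.25 in the liver (adjusted p = 0.177), 0.25 ± 0.09 in the lung (adjusted p = 0.165) and 0.87 ± 0.30 in WAT (adjusted p = 0.202). The immunosubunit called in the liver was therefore Psmb8, while all of them were called in the kidney.

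Nlrc5, which binds the SXY module of class I promoters through other factors, had the largest change in the kidney by the probe used. It read −2.16, −1.60 and −1.56 in young and 0.87, 0.70 and 0.72 in aged kidneys, a rise of 2.54 ± 0.18, or 5.81-fold (adjusted p = 0.000158). On the kidney arrays 19.2% to 40.3% of probes were brighter than this one. In the liver it read 0.68, 1.24 and 1.39 against 1.77, 1.97 and 1.96, a rise of 0.80 ± 0.22 (adjusted p = 0.0370). The lung difference of 1.10 ± 0.40 was the largest among the members there but was not called (adjusted p = 0.148). Young sample 2 (1.05) lay well above the other young samples (−0.39 and −0.20), and no alternative, including those without it, called Nlrc5 in the lung. In WAT the difference was 0.88 ± 0.53 (adjusted p = 0.413).

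A second probe was present for 5 members. For H2-K1 it differed by 1.06 in the kidney, 0.24 in the liver, 0.34 in the lung and 0.28 in WAT, and for Tap1 by 1.80, 0.66, 0.54 and 0.69, in each case in the direction of the probe used. For Tapbp it differed by 0.71, 0.15, −0.03 and −0.07 in the same order, the lung value being opposite in sign to that of the probe used. The second probes of Tap2 and Nlrc5 were much dimmer than the probes used. That of Tap2 differed by 1.07 in the kidney and by 0.19 in WAT, but by −0.16 in the liver, where it was well above background on no array, and by −0.25 in the lung, where it was so on 4 arrays. That of Nlrc5 was nevertheless well above background on all 6 arrays of the kidney and of the liver. It went the other way in the kidney (−0.36) and the liver (−0.32). Its differences were 0.19 for WAT, with 6 arrays well above background, and 0.37 for the lung, with 5. The cause of the opposite signs was not tested. With the mean of both probes Nlrc5 rose by 1.09 in the kidney and remained called, and it was not called in the liver.

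WAT differed from the other tissues in its spread. Young WAT sample 1 was the lowest of its group for 10 of 10 members, and aged WAT sample 3 the highest of its group for 10 of 10. Among young samples, 5 members spanned over 1 log2 unit in WAT, against 1 in the liver, 1 in the lung and none in the kidney. Without young sample 1 the member median in WAT fell from 0.71 to 0.39, and without aged sample 3 it was 0.43. Young sample 1 was also the lowest for Ptprc, the leukocyte antigen CD45, at −0.00 against 1.70 and 1.40, while aged WAT samples read 3.41, 2.83 and 3.36.

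Of the leukocyte markers, Ptprc moved in the direction of the members, while markers of single cell types were mixed. Ptprc rose by 2.99 in the kidney (limma adjusted p = 4.58e-05), 2.41 in the liver (0.00187) and 1.34 in the lung (0.00944). In WAT it differed by 2.17 (adjusted p = 0.0786). On the linear scale its signal, relative to the 75th percentile of the array, went from 0.526 to 0.600 in young kidneys to 3.68 to 5.02 in aged ones. The ranges were 0.866 to 1.09 and 4.26 to 6.87 in the liver, 4.53 to 5.04 and 11.3 to 12.7 in the lung, and 0.998 to 3.24 and 7.13 to 10.6 in WAT. All 4 macrophage markers (Adgre1, Cd68, Csf1r and C1qa) rose in kidney and liver, 2 in WAT and none in the lung. Their summed signal went from a range of 20.5 to 23.4 to one of 64.0 to 92.1 in the kidney. All 4 B cell markers rose in kidney and WAT, 1 in the liver and none in the lung.

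Of 5 T cell markers, 4 rose in the kidney and Cd4 fell, 4 rose in the lung, 3 in WAT and 2 in the liver. The summed T cell signal was 6.70 to 7.98 in young and 9.22 to 11.1 in aged kidneys, 9.38 to 10.4 and 17.9 to 25.6 in the lung, and 4.97 to 5.38 and 11.1 to 14.6 in WAT. In the liver it was 42.8 to 60.3 and 38.0 to 40.4, most of it from Cd4. In young kidneys too Cd4 was the brightest of these markers (mean log2 level 2.39), and it fell by 0.50. In the kidney Cd3d, Cd3e, Cd3g and Cd8a rose by 3.03, 0.80, 3.97 and 1.66. No natural killer cell marker was called higher in any tissue, and Klrb1c fell in the kidney. Ncr1 was too dim to be tested in liver and kidney. In the liver Gzma and Klrb1c were higher by 1.38 and 0.53 without overlap but not called (limma adjusted p = 0.063 and 0.062). Gzma was lower in the kidney (−0.57) and WAT (−1.21), also without a call. Dendritic cell markers rose in the kidney (Flt3 and Zbtb46) and the liver (Flt3). In homogenized tissue, more cells of a type and more RNA per cell cannot be told apart, and the part of these cells in the class I values was not tested. Summed markers of each labelled organ were bright in that organ, for example 2370 to 4026 for Alb, Apoa1, Ttr and Cyp2e1 in the liver. In WAT, Adipoq, Plin1, Lep and Fabp4 summed to 635 to 855. Single markers were not all bright. Lep had mean log2 levels of −0.27 in young and −0.65 in aged WAT, against 0.11 in young livers, and Nphs1 had −0.08 in young kidneys.

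Markers of other organs also moved with age in the compared groups. In the lung Plin1 fell (limma adjusted p = 0.0291), and Adipoq (adjusted p = 0.0581) was well above background in all 3 young but in 1 of 3 aged samples. The summed fat markers in the lung ranged from 20.3 to 42.5 in young and from 2.62 to 16.04 in aged samples. The summed liver markers in aged lungs ranged from 2.12 to 122, against 7.22 to 12.3 in young lungs. In WAT the liver gene Alb was lower by a log2 difference of −3.52 (adjusted p = 0.0579), and in the kidney Alb fell by 1.35 (adjusted p = 9.70e-05). In the kidney Adipoq and Plin1 rose (adjusted p = 0.0354 and 0.0233), each with 1 of 3 young samples well above background. The part of other tissue in the class I values was not tested.

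The RNA of proteasome subunits that replace each other was compared within each array, where the array scale cancels. Exchange of the proteins in the proteasome was not measured. Psmb8 takes the place of Psmb5, Psmb9 of Psmb6 and Psmb10 of Psmb7, so the log2 difference of each pair was computed per sample and its change with age is reported, since levels of different probes cannot be compared. For Psmb8 minus Psmb5 the difference was −4.63, −4.28 and −4.40 in young and −0.97, −1.27 and −1.47 in aged kidneys, a change of 3.20. The change was 1.74 in the liver, 1.45 in WAT and 0.77 in the lung. For Psmb9 minus Psmb6 the kidney went from −5.90, −5.51 and −5.50 to −3.04, −3.29 and −3.45, a change of 2.37. It changed by 0.93 in the liver, 0.73 in WAT and 0.63 in the lung. Psmb10 minus Psmb7 changed by 2.54 in the kidney, 1.38 in the liver, 1.28 in WAT and 0.46 in the lung.

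In 11 of these 12 comparisons every aged sample lay above every young sample, the exception being Psmb9 minus Psmb6 in WAT. Each of the 11 had an exact two-sided permutation p of 0.1, the smallest that 3 against 3 samples allow, and 0.1091 after Benjamini-Hochberg adjustment over the 12 tests. The exception had an exact permutation p of 0.3. The design cannot reach 0.05 here, so these are differences without overlap and not calls. The share of all gene pairs apart in this way was not computed. The pairs also reuse the immunosubunit values given above, so they are not independent of those results. Part of the change lay in the constitutive subunits. In the kidney Psmb5 fell by 0.92 (limma adjusted p = 0.000583), Psmb6 by 0.53 (0.00171) and Psmb7 by 0.87 (0.000912), and in the liver Psmb5 fell by 0.86 (0.0148) and Psmb7 by 0.89 (0.0271). With spike-in scaling the kidney values were −0.53, −0.14 and −0.48, of which Psmb6 was no longer called (adjusted p = 0.438), and none was called in the liver. With quantile scaling Psmb6 turned to 0.05 in the kidney (adjusted p = 0.580).

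**Figure D3:**
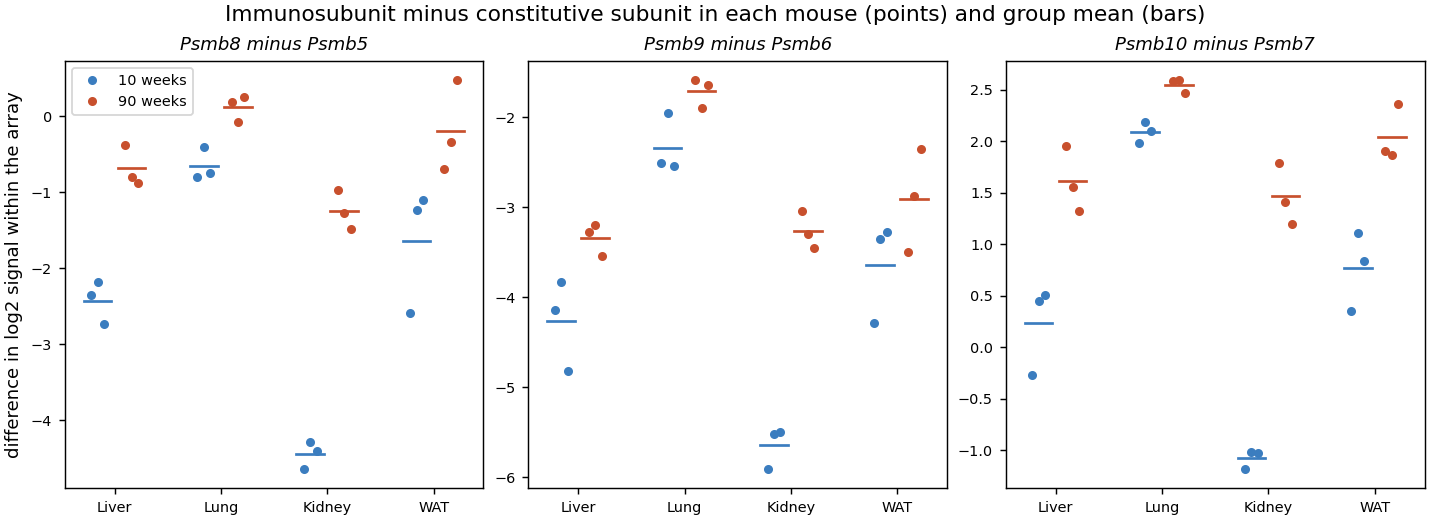
Log2 signal of each immunosubunit minus that of the constitutive subunit it replaces, in every sample (points) with group means (bars). Aged kidneys lie above young kidneys in all 3 panels, by 3.20, 2.37 and 2.54 on average, and only Psmb9 minus Psmb6 in WAT has overlapping groups.

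Other genes of the pathway did not all move with the members. Of 15 other class I genes tested, 9 rose and 4 fell in the kidney, with a median change of 0.58. Among all genes tested in the kidney, 20.6% rose and 42.6% fell, with a median of −0.23. Among them H2-M3, which presents formylated peptides, rose by 2.17 ± 0.09 (limma adjusted p = 3.86e-05), Cd1d1, which presents lipids, by 2.03 (adjusted p = 8.22e-05) and H2-Q10 by 1.49 (adjusted p = 0.000310). In the liver H2-M3 rose by 1.81 ± 0.17 (adjusted p = 0.00192), H2-T3 fell by 1.04 (adjusted p = 0.0232), and the other 13 were not called. No gene of this list was called in the lung or WAT. Near-identical class I genes may share probe signal, which was not checked because the probe sequences were not used here.

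Peptide loading and trimming (Erap1, Calr, Canx, Pdia3 and Tapbpl) was mixed in the kidney, with 2 genes higher and 3 lower. Tapbpl, a tapasin-related editor, rose by 0.71 (adjusted p = 0.000704), whereas the chaperones Canx and Calr fell by 0.61 and 0.58. In the liver Calr fell by 0.69 and the other 4 were not called. With spike-in and with quantile scaling, 2 genes of this list were called higher in the kidney and none lower. The transporter and tapasin thus rose in the kidney, whereas Canx, Calr and Pdia3, which also serve other proteins of the endoplasmic reticulum, did not.

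Other subunits and assembly factors of the 20S proteasome went down with age under the main scaling. In the kidney 15 of 16 fell, with a median of −0.50, among them Psmg1 by 0.84, Psmb3 by 0.61 and Psmb4 by 0.60. Among all genes tested there, 42.6% fell, with a median of −0.23. In the liver 5 of 16 fell, with a median of −0.47, among them Psmg3 by 0.72, Psma1 by 0.69 and Psmb3 by 0.66. Of all genes tested in the liver 17.0% fell, with a median of −0.20. None was called in the lung or WAT. These falls depended on the scaling. In the kidney 1 of 16 fell with spike-in scaling and 4 with quantile scaling, with medians of −0.11 and −0.08, and in the liver 0 and 1 fell. No subunit of this list rose in any tissue under the main scaling, in contrast to the 3 immunosubunits in the kidney. The proteasome activators were divided in the kidney, where Psme1, a subunit of the interferon-inducible PA28 cap, rose by 0.57, while Psme3 and Psme4 fell by 0.92 and 0.86.

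Regulators of class I expression rose widely in the kidney. Of 16 tested, 11 rose and 2 fell there, with a median of 1.26, and 4 rose in the liver (median 0.37), 1 in the lung and 1 in WAT. Among all genes tested, 20.6% rose and 42.6% fell in the kidney. The shares that rose were 10.5% in the liver, 2.72% in the lung and 2.01% in WAT. Irf8, an interferon regulatory factor of myeloid and lymphoid cells, was called in 3 tissues, at 1.82 in the kidney, 1.87 in the liver (adjusted p = 0.00283) and 2.03 in WAT (adjusted p = 0.0251). Ciita, the class II counterpart of Nlrc5, rose by 2.42 in the kidney (adjusted p = 0.000164) and 1.66 in the liver (adjusted p = 0.0236). In the kidney Ifng itself, the gene of interferon-gamma, was at least 4.21-fold higher (adjusted p = 0.000905), with 1 of 3 young samples well above background. In the liver Ifng was below the background call in all young samples and was at least 1.66-fold higher in aged samples (adjusted p = 0.0392). Ifng was near the detection limit of the array in these tissues, so its size is less certain than that of the members.

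Receptors that read class I rose as well. Pirb, an inhibitory receptor of myeloid cells, rose by 4.12 in the kidney (adjusted p = 6.33e-05), 2.66 in the liver (adjusted p = 0.00392) and 1.88 in the lung (adjusted p = 0.0280). Cd8b1, the beta chain of the CD8 co-receptor, rose by 2.01 in the kidney, 1.10 in the liver and 2.55 in WAT. In the liver Cd8a, the alpha chain, was lower by a log2 difference of −0.24, without overlap but not called (limma adjusted p = 0.290). Klrd1, the CD94 chain of natural killer receptors, rose by 2.24 in the kidney and 1.22 in the liver. All 4 receptors tested rose in the kidney, 3 of 4 in the liver, 2 of 5 in the lung and 1 of 4 in WAT. Of all genes tested, 20.6%, 10.5%, 2.72% and 2.01% rose in the same order.

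**Figure D4:**
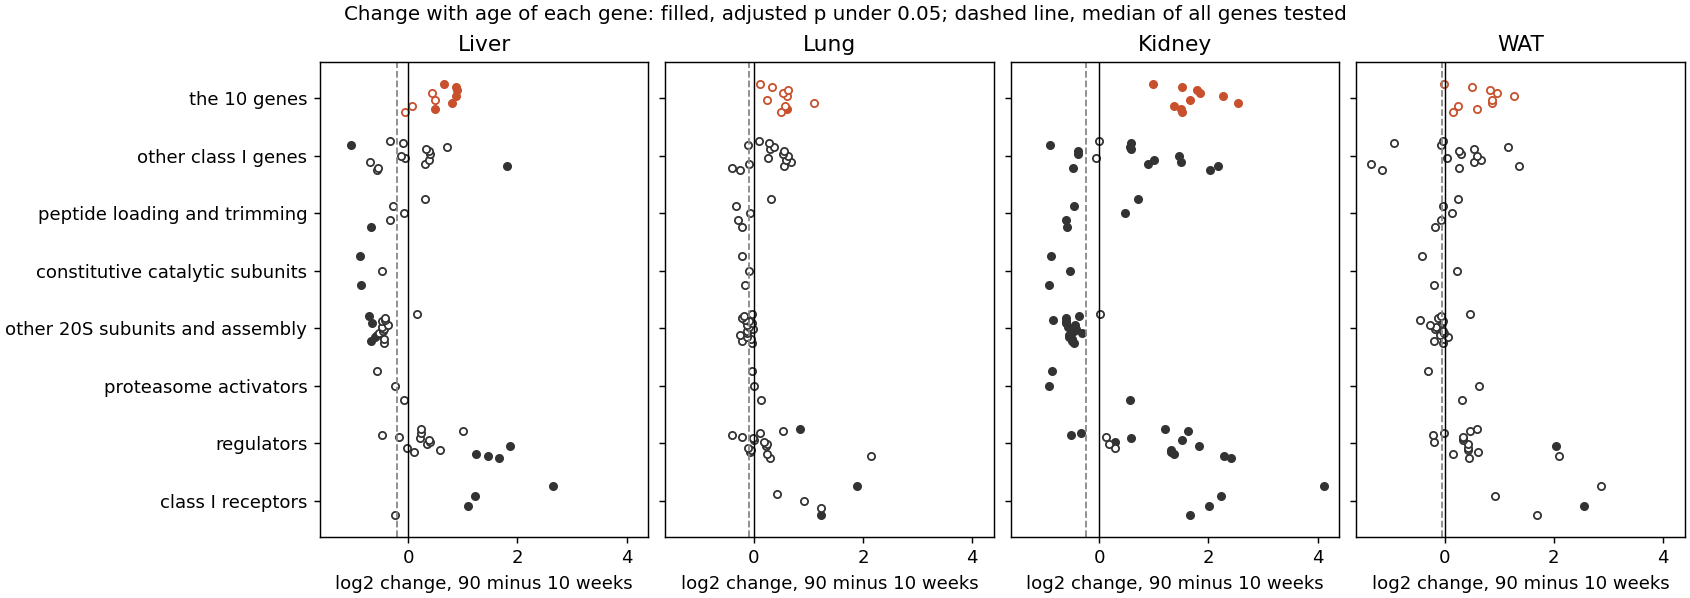
Log2 change from 10 to 90 weeks of each gene in the pathway lists, 1 point per gene and 1 panel per tissue. Filled points have a limma adjusted p under 0.05 and the dashed line is the median of all genes tested. In the kidney 15 of 16 other 20S and assembly genes lie below 0 as filled points while 11 of 16 regulators lie above 0 as filled points.

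Whether the kidney differed from other tissues was tested directly in a fit of all 24 arrays, as the change in a tissue minus the mean change of the other 3. In the kidney 9 of 10 members changed by more than in the other tissues, against 7.61% of 25774 genes. The excess was 1.61 ± 0.46 for Nlrc5 (limma adjusted p = 0.0171), 1.36 ± 0.34 for Psmb8 (adjusted p = 0.00793) and 1.31 ± 0.15 for B2m (adjusted p = 1.47e-05). It was smallest among those called for Tapbp, at 0.73 ± 0.11 (adjusted p = 0.000209). Tap1, at 1.00 ± 0.36, missed the threshold (adjusted p = 0.0549). With the mean of both probes the excess of Nlrc5 was 0.58 and was not called (adjusted p = 0.173; the adjusted p ran from 0.00325 to 0.173 over 30 alternatives).

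In the liver 2 members changed by less than elsewhere, against 8.14% of genes, namely B2m (−0.79 ± 0.15, adjusted p = 0.00183) and H2-K1 (−0.66 ± 0.20, adjusted p = 0.0377). In the lung this held for Tapbp (−0.42 ± 0.11, adjusted p = 0.0197), against 5.36% of genes. In WAT it held for Tapbp (−0.59 ± 0.11, adjusted p = 0.00225) and B2m (−0.49 ± 0.15, adjusted p = 0.0359), against 4.50% of genes. The labels do not say whether organs of the same number came from the same mouse. The fit treated the 24 arrays as independent, so its p-values do not account for shared mice. The contrasts also share arrays, so a large rise in the kidney enters the mean to which each other tissue was compared. The difference for H2-K1 in the liver was called under 14 of 30 alternatives and that for B2m in WAT under 21.

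Levels of the members were lowest in the young kidney. At 10 weeks the kidney had the lowest mean level of the 4 tissues for 10 of 10 members, and every young kidney lay below every other young sample for all 10. The share of all genes with this order was not computed, so the order is not shown to be particular to the members. With spike-in scaling the kidney was again lowest for all 10, without overlap for 9. At 90 weeks it was lowest for 9 members, without overlap for 9, but for 5 members with spike-in scaling (without overlap for 1) and 8 with quantile scaling (without overlap for 2). For H2-K1 the mean level at 10 weeks was 8.79 ± 0.17 (SD, n = 3) in the liver, then 7.73 ± 0.08 in WAT, 7.36 ± 0.18 for the lung and 6.10 ± 0.14 for the kidney. At 90 weeks these were 8.86 ± 0.22, 7.98 ± 0.42, 7.93 ± 0.21 and 7.46 ± 0.10. On this scale lung and WAT did not differ beyond their spread at 90 weeks. The order of liver, WAT and lung was not kept under other scalings. With quantile scaling the levels at 10 weeks were 17.30 in WAT, 17.18 for the lung and 16.92 for the liver. With spike-in scaling liver and lung were level at 10 weeks (4.54 and 4.51), and at 90 weeks the lung was highest (4.98), above the liver (4.72) and WAT (4.18). As each tissue was on its own slide, the slide and the tissue cannot be told apart in these levels.

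The members followed each other closely. With each gene centred on the mean of its tissue, the Pearson correlation of a member with the mean of the other members over the 24 arrays ran from 0.865 (Tapbp) to 0.984 (H2-D1). Among 15500 other genes with a symbol, the most alike to the mean of the members were AW112010 (r = 0.972), Lgals3bp (0.954), Dhx58 (0.953), C4b (0.952) and Ifitm3 (0.952). These points share the age groups and the array scale, so the correlations are descriptions over 24 arrays. C4b, a complement component, differed by 4.11 in the kidney, 0.61 in the liver, 1.05 in the lung and 1.34 in WAT. Dhx58, a sensor of viral RNA, differed by 2.26, 0.38, 0.55 and 1.03 in the same order.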

How the data were processed

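Total RNA of 4 organs at 2 ages was measured on 24 arrays. Per the file headers, the authors' scans were read with Agilent Feature Extraction 11.0.1.1, and the deposited intensity values are background-subtracted processed signals in arbitrary units, not scaled between arrays. The deposited flags for outlier and background calls (other columns) were used to leave out 40 to 135 spots per array and to filter probes. No spot was saturated, and 58.6% to 71.1% of probes were well above background. The number of arrays limits the precision.

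From the log2 of each processed signal, its array's 75th percentile over non-control probes was subtracted. Of 56605 probes, 32989 (58.3%) matched a RefSeq symbol of GRCm38.p6. That is not the build of the array (mm9), so the table gave names and promoter sequences only. Probes without a symbol were kept under the array's own name and are counted among all genes tested. A probe had to pass the background call on 3 or more of the 6 arrays of a tissue, and the brightest probe represented a gene. Within a tissue, lmFit and eBayes of limma 3.58.1 (R 4.3.3) compared the ages, and p-values were adjusted by Benjamini-Hochberg, with a threshold of 0.05. Tissues were compared in a fit of all 24 arrays, and subunit pairs by an exact permutation test. The fit was tested on simulated data. Named were the 10 members, list genes called in at least 3 tissues or among the 3 largest called changes in a tissue, and the 5 genes most alike. A regulator that this rule names is not reported here. The members, lists and motifs were chosen with earlier results of these data known. Alternatives were centring on the median, spike-in (7 of 10 transcripts) and quantile scaling, normexp with an offset of 16, no filter, the mean of probes, all arrays in 1 fit, the replicate block, the methods' t-test, and each sample left out. The pathway lists under other scalings and the order of levels were added after seeing the data. A slide block was not run, since each tissue lay on 1 slide.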

Additional observations from a re-analysis of the deposited data

Results flagged for a closer look

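In 14 cases the change of a member in a tissue differed from the mean change of the other 3 tissues by limma in a fit of all 24 arrays. The contrasts share arrays, so these are not 14 independent results. In the kidney the change exceeded that of the others by 1.07 for H2-K1, 0.93 for H2-D1, 1.31 for B2m, 0.96 for Tap2, 0.73 for Tapbp, 1.36 for Psmb8, 1.19 for Psmb9, 1.13 for Psmb10 and 1.61 for Nlrc5, all on the log2 scale. In the liver the difference was −0.66 for H2-K1 and −0.79 for B2m. In the lung it was −0.42 for Tapbp, and in WAT −0.49 for B2m and −0.59 for Tapbp. Of 30 alternatives, all called the kidney differences of H2-K1, H2-D1, B2m, Tap2, Tapbp, Psmb8 and Psmb10, 28 that of Psmb9 and 27 that of Nlrc5.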

How the results depend on the processing

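All 10 members were called in the kidney under each of 15 alternatives, and no member was called lower. Of 600 recomputed changes of a member in a tissue, 531 kept their direction and call, 52 lost and 6 gained a call, and 11 changed sign. Only 17 of the 40 results had a call to lose. As every kidney call was kept and WAT had none, all 52 losses were in the liver and the lung. Of 420 recomputed differences between tissues, 385 kept both and 35 lost the call.

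With spike-in scaling 0 liver and 0 lung members were called, the kidney median was 1.99, the liver median 0.69 and the lung median 0.45, and 1 member fell short in the liver and 1 in WAT. With quantile scaling the lung count was 0, the kidney median was 1.99 and the liver median 0.84, and 1, 3 and 4 members fell short in liver, lung and WAT. Centring on the median gave 0 lung calls and a kidney median of 1.49. Without the filter the lung count was 0, and 1, 0 and 1 fell short in liver, lung and WAT. The mean of probes gave a kidney median of 1.5 and a liver median of 0.46, with 1 and 0 falling short in liver and lung. The methods' t-test called 3 in the liver and 0 in the lung. All 24 arrays in 1 fit called 4 in WAT. The cause of these shifts was not tested.

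The replicate block, a paired fit, called 10 members in the kidney, 0 in WAT, 0 in the lung and 0 in the liver, and H2-K1 in the liver was −0.11. Same-numbered samples did not deviate together in every pair, so the numbers were not treated as pairs, and the liver block rests on 2 pairs.

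Of the values near 0, B2m in the liver was 0.0496 with spike-in and 0.37 with quantile scaling, and B2m in WAT was −0.0349 with quantile scaling. With each sample left out in turn, H2-K1 in the liver ran from −0.0382 to 0.181 (it was 0.51 and called with quantile scaling), B2m in the liver from −0.161 to 0.0134 and Tapbp in WAT from −0.0684 to 0.0534. The count called ran from 1 to 3 in the liver (1 without young liver 1), 0 to 1 in the lung, 10 to 10 in the kidney and 0 to 0 in WAT. The medians ran from 0.52 to 0.68, 0.47 to 0.67, 1.53 to 1.65 and 0.39 to 0.87. Members falling short ran from 1 to 2 in the liver, 0 to 2 in the lung and 1 to 4 in WAT, and those exceeding in the kidney from 7 to 10.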
